A study of Mus musculus with 3 samples.

Results

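The keratins and desmosome proteins of simple epithelium were examined in mouse blastocysts of the strains B6 and NOD. The set held the keratin genes Krt8, Krt7, Krt18 and Krt19 and the desmosome genes Dsg2, Dsc2, Dsp, Jup, Pkp2 and Pkp3. They were chosen by name, as simple epithelial keratins and components of desmosomes, and make up 10 of the 24063 genes in the count table. The study compared diabetes-prone NOD with diabetes-resistant B6, an inbred C57BL/6 strain, and asked whether embryos of the strains already differ in gene expression. There was 1 library of B6 and 2 of NOD, all from untreated embryos and all made with SMART-Seq V4, which copies and amplifies the RNA of very few cells. The labels name blastocysts as input. The study's text instead describes single inner cell masses (ICMs) freed by immunosurgery, a step that lyses the trophectoderm, and how much trophectoderm such pieces kept was not measured here. The age of the embryos is not given in the sources used here.

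Keratins form the intermediate filaments of epithelia. A filament is built from pairs of a type I and a type II chain, and the type II chains Krt8 and Krt7 pair with the type I chains Krt18 and Krt19. Desmosomes are the spot junctions that tie these filaments together from cell to cell: the cadherins Dsg2 and Dsc2 bridge the gap between membranes, Jup and the plakophilins bind their tails, and Dsp links this plaque to keratin. In the blastocyst, filaments and desmosomes are features of the trophectoderm, the outer epithelium that will form the placenta, and the ICM inside it has few of either.

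The libraries held 12505685 counts for B6, 33891715 for NOD 1 and 36171013 for NOD 2, so B6, the only library of its strain, was also the shallowest. Levels are given as CPM, the counts scaled to library size with edgeR's TMM factors. Where B6 had 0 counts, its level may reach 0.220 CPM, the worth of 3 counts. These limits and the exact 95% intervals given with ratios speak of counting error alone, since PCR copies were not marked by molecular identifiers. Nothing in the labels says that the NOD libraries came from separate mothers, and p-values then measure only the spread between these libraries, which may be technical. With 1 library against 2, the smallest p of an exact permutation test is 0.333. Defining trophectoderm and ICM genes were counted in all 3 libraries. In the order B6, NOD 1 and NOD 2, which is kept wherever 3 values follow each other, Cdx2, the caudal-type factor of trophectoderm, stood at 84.2, 66.9 and 53.8 CPM. Pou5f1, a factor of the ICM, stood at 109.3, 146.5 and 180.6 CPM.

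Krt8, Krt18 and Krt7 lie together in the keratin cluster of chromosome 15, where 25 keratin genes of the lists were in the table, 14 of them with 0 counts in every library. Krt8 (NM_031170, 101996711 to 102004342, minus strand) and Krt18 (NM_010664, 102028216 to 102032026, plus strand) are neighbours on opposite strands. Their spans are 23873 bases apart with no other gene of the table between them. Krt7 (NM_033073, 101412403 to 101427806) lies near the other end of the cluster. The 250 bases before the start of these 3 genes are shown because Krt8 and Krt18 kept a nearly fixed ratio in these libraries while Krt7 did not. They are from RefSeq, build GRCm38.p6, whose gene starts for these genes equal those of the table (mm10), and are written in the direction of the gene. Capitals mark matches on either strand to 4 short motifs. The letters searched were GCCNNNGGC for AP-2 factors, GGGCGG for the GC box of Sp and Klf factors, TTTAT for Cdx factors, and AGATAA for factors of the Gata family.
Krt8, chr15:102004343-102004592, minus strand: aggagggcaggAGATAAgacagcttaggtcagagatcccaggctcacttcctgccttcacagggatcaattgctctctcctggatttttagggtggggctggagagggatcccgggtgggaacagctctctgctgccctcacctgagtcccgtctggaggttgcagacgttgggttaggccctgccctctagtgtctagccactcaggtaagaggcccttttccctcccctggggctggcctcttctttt
Krt18, chr15:102027966-102028215, plus strand: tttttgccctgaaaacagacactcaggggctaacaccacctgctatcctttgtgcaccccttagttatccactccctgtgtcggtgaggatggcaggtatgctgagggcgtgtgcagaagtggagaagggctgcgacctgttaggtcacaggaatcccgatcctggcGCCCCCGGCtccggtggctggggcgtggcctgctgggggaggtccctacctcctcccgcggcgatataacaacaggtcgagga
Krt7, chr15:101412153-101412402, plus strand: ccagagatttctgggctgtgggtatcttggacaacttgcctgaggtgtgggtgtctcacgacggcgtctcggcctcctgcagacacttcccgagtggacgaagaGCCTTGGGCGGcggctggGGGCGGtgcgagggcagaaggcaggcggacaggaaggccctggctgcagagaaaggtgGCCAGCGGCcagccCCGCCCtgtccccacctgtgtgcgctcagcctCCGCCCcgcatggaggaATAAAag

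The 3 windows held different letters. Upstream of Krt8 there was 1 Gata match, which began at position -239 from the gene's start, and of Krt18 1 AP-2 match at -83. Krt7 held 2 AP-2 matches, at -146 and -70, 4 GC boxes, of which the one at -141 overlaps the AP-2 match before it, and 1 Cdx match at -7. Promoters of the set were found for 5 of the 10 genes, the other two being Dsp with 1 AP-2 match and 4 GC boxes, of which 1 overlaps it, and Jup with 2 GC boxes and 1 Cdx match. The letters GGAATG, for Tead factors, were found in none of the 5 windows. Nor were the letters TGANTCA, for AP-1 factors. Among 32841 promoter windows of the same length, 13.7% held the AP-2 letters, 32.7% the GC box, 37.3% the Cdx letters, 9.99% the Gata letters, 12.6% the Tead letters and 6.75% the AP-1 letters. A match is a description of the letters and was not tested as a binding site.

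The strains were compared over 14456 genes with the quasi-likelihood test of edgeR and Benjamini-Hochberg adjustment. A gene was called where its adjusted p was under 0.05 and its level differed 2-fold or more. All 10 keratin and desmosome genes were tested, and 0 were called higher and 0 lower in NOD. Among all genes tested, 10.3% were called higher and 7.39% lower. At an unadjusted p under 0.05 there were 5 of the 10, Krt19 and Pkp3 with higher and Krt8, Krt18 and Pkp2 with lower levels in NOD, against 39.9% of all genes. DESeq2 called 1 of the 10 lower, Pkp2, and none higher, where 12.9% of all genes were called lower and 16.2% higher, and limma-voom called 0 of all genes (an unadjusted p under 0.05 was found for 3 of the 10 and for 3924 of the 14456 genes). Both NOD libraries lay above B6 for 4 genes and below it for 5, and Dsg2 alone had the B6 level between them. Of all genes tested, 45.3% lay above and 39.4% below in both.

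**Figure D1:**
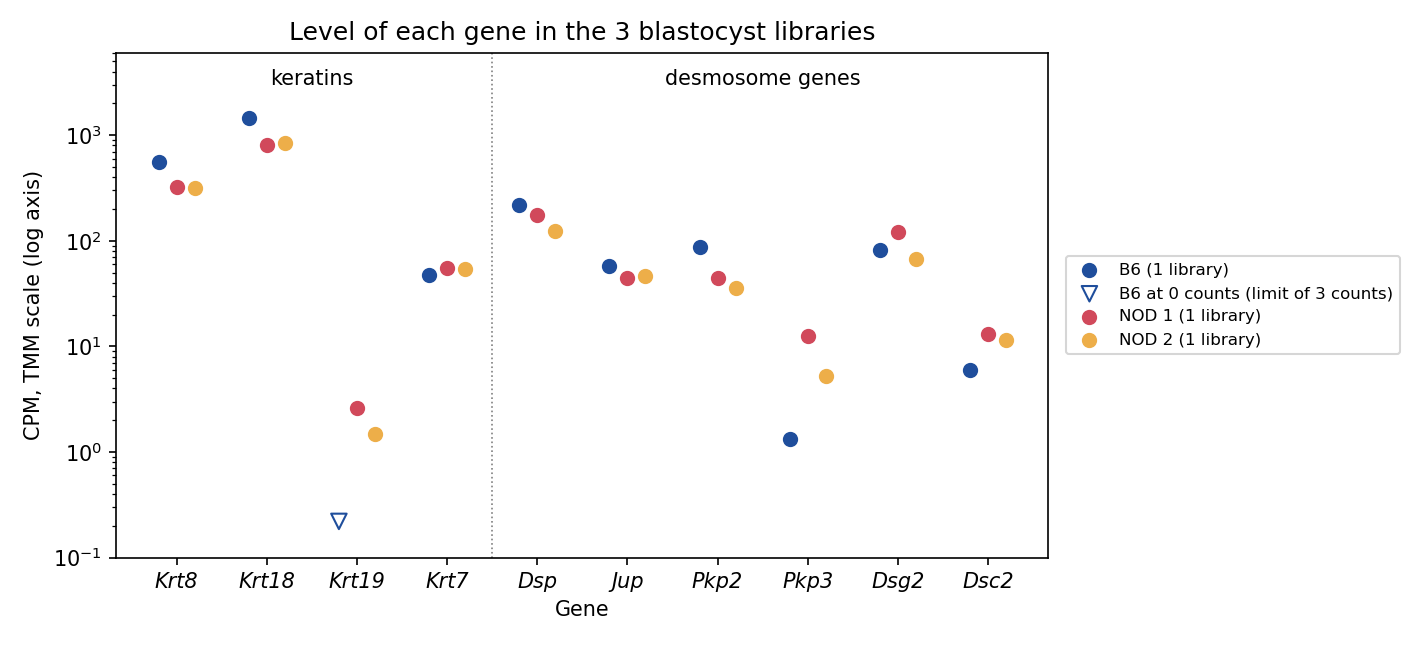
Level of the 10 keratin and desmosome genes in each library, as CPM on the TMM scale (vertical log axis), with one point for the B6 library and one for each NOD library. Krt18 and Krt8 stand highest in all 3 libraries, and the open triangle for Krt19 is the limit of 0.220 CPM that its count of 0 in B6 allows.

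The keratins were dominated by 1 pair. Krt18, the type I chain of that pair, had 19953 counts in the B6 library and 26834 and 29006 in those of NOD, which is 1464, 811.8 and 852.3 CPM. The NOD mean was 832.0 ± 28.7 CPM (SD, n = 2). The B6 level lay above both NOD levels, by far more than the distance between them. The fitted log2 fold change of NOD over B6 was -0.82 (standard error 0.18, edgeR adjusted p = 0.0453). Krt18 was the only gene of the 10 with an adjusted p under 0.05, but at 1.76-fold lower in NOD it did not reach the 2-fold limit. Its adjusted p ran from 0.00633 to 0.0856 over the settings tried. Whether the input was whole blastocysts or ICMs with trophectoderm left on them, fewer trophectoderm cells and less RNA per cell cannot be told apart, here and for every gene that follows.

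Krt8, the type II partner of Krt18, followed the same pattern. It had 7608, 10698 and 10814 counts, or 558.3, 323.6 and 317.8 CPM. The NOD libraries differed by 1.02-fold from each other, with a mean of 320.7 ± 4.15 CPM (SD, n = 2), and the B6 library lay above both. The log2 fold change was -0.80 (standard error 0.20, edgeR adjusted p = 0.0586), a level 1.74-fold lower in NOD that did not pass the threshold (adjusted p from 0.0127 to 0.110 over the settings). Of the 50-base words of the Krt8 transcript, 26.9% also occur in the pseudogene Krt8-ps, so part of its reads cannot be placed with certainty. For Krt18 this share was 0.720%.

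Per kilobase of transcript, the scale on which genes can be compared, Krt18 and Krt8 ranked at places 61 and 311 among all genes in B6, 164 and 762 in NOD 1 and 170 and 855 in NOD 2. The ratio of Krt8 to Krt18 per kilobase does not depend on the scaling between libraries. It was 0.296 in B6 (exact 95% interval 0.288 to 0.304), 0.309 in NOD 1 (0.302 to 0.316) and 0.289 in NOD 2 (0.283 to 0.296). The B6 ratio lay between those of the NOD libraries, so that no difference between the strains was seen in the balance of this pair. Over the 3 libraries, the log2 CPM pattern of Krt18 lay nearer to that of Krt8 than did the patterns of all but 39 of 8458 genes with a mean of at least 10 CPM. With 3 libraries many genes share such a pattern, and Ankrd28, Pfdn6, Arl8a and Fxyd4 were among the nearest. Pfdn6, a subunit of the prefoldin chaperone, stood at 334.1, 193.2 and 191.6 CPM.

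Krt7, the second type II keratin, did not share the lower level of Krt8. It had 643, 1826 and 1836 counts, or 47.2, 55.2 and 53.9 CPM, and the NOD mean was 54.6 ± 0.91 CPM (SD, n = 2). Both NOD libraries lay slightly above B6 (log2 fold change 0.21, standard error 0.34, edgeR adjusted p = 0.663). Relative to Krt8 in the same library, Krt7 per kilobase was 0.0963 in B6 (exact 95% interval 0.0887 to 0.104), 0.194 in NOD 1 (0.185 to 0.204) and 0.193 in NOD 2 (0.184 to 0.203). The share of Krt7 beside Krt8 was thus higher in both NOD libraries, outside the counting error of all 3 values, although 1 B6 library leaves the spread within that strain unknown. Of the 50-base words of Krt8, 26.9% occur in another gene, and 0% of those of Krt7. The part of such words in this ratio was not tested.

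**Figure D2:**
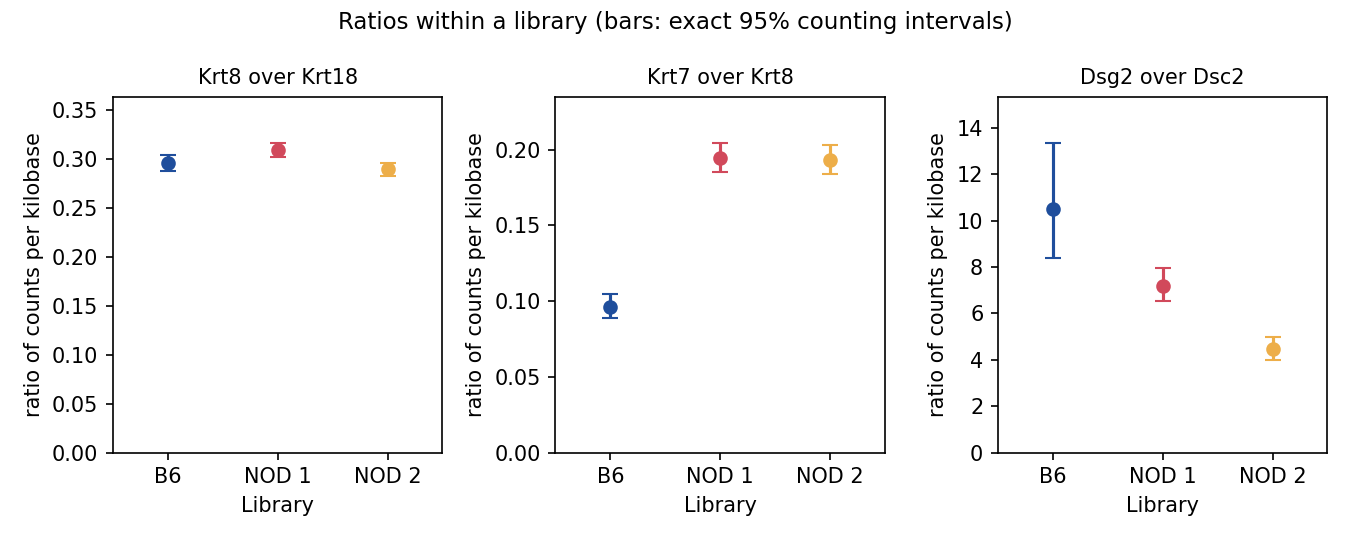
Ratios of counts per kilobase within each library for Krt8 over Krt18, Krt7 over Krt8 and Dsg2 over Dsc2 (vertical axes start at 0, bars are exact 95% counting intervals). The first ratio is between 0.289 and 0.309 in all 3 libraries, the second is 0.0963 in B6 against 0.194 and 0.193 in NOD, and the third is 10.5 in B6 against 7.20 and 4.46 in NOD.

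Krt19, a type I keratin that lies in the other keratin cluster, on chromosome 11 (NM_008471, 100140811 to 100145919), had 0, 86 and 50 counts. Its NOD level was low, 2.60 and 1.47 CPM. Against the limit of 0.220 CPM in B6, the NOD mean of 2.04 ± 0.80 CPM (SD, n = 2) was at least 9.25-fold higher, at least 11.8-fold in NOD 1 and 6.67-fold in NOD 2. The test did not pass the threshold (edgeR adjusted p = 0.0674), and the gene was called higher only where genes under 1 CPM in 2 libraries were removed beforehand (adjusted p = 0.0107, where 20.8% of all genes were called higher, and up to 0.476 over the settings). With 1 B6 library, a gene can pass that filter only with counts in NOD, and Krt19 passed both this and the edgeR filter through NOD alone, so the filter is tied to the direction of this call. Summed over both chains of each type, the type II to type I ratio per kilobase was 0.324, 0.368 and 0.344. Summed CPM of the 4 keratins was 2070, 1193 and 1225, or 0.577 and 0.592 times the B6 sum, most of it Krt18.

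Of the other keratins, 48 genes were in the table, most of them keratins of hair, skin and other stratified epithelia. In all 3 libraries 32 had 0 counts, and of the 6 that could be tested 0 were called in either direction by edgeR (1 at an unadjusted p under 0.05, and 0 by DESeq2 or limma-voom). Of all genes tested, edgeR called 10.3% higher and 7.39% lower, with 39.9% at an unadjusted p under 0.05. DESeq2 called 16.2% higher and 12.9% lower, and limma-voom called 0. Krt10, a type I keratin of epidermis, was the most abundant of these other keratins, at 21.8, 18.9 and 18.0 CPM (log2 fold change -0.24, edgeR adjusted p = 0.686). The hair keratins Krt85 and Krt83 came next, at no more than 1.85 CPM. The listed span of Krt85 contains that of Krt83, so their reads are uncertain. The median log2 fold change of the 6 tested genes was 4.02, against 0.26 over all genes tested, and 1.22 with genes at 0 in a strain set to their bound. Krt83, Krt27 and Krt222 had 0 counts in B6 and passed the filter only through the deeper NOD libraries, so this median describes genes selected on their NOD counts. Krt1, Krt5 and Lor, defining genes of skin keratinocytes, had 0 counts in every library, and without Krt10 the highest of the 6 skin genes in the table reached 1 count.

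The desmosomal cadherins are encoded in 1 cluster on chromosome 18. Dsg2 (NM_007883, 20558116 to 20604526) had 1107, 4033 and 2281 counts, which is 81.2, 122.0 and 67.0 CPM. The B6 level lay between the NOD levels, which were 1.82-fold apart, and the log2 fold change was 0.22 (standard error 0.45, edgeR adjusted p = 0.733). Its sign rested on NOD 1, since it was 0.59 without NOD 2 and -0.26 without NOD 1. Dsc2 (NM_013505, 20030798 to 20059505) had 81, 431 and 394 counts, or 5.94, 13.0 and 11.6 CPM. Both NOD libraries lay above B6, by 2.07-fold together (exact 95% counting interval 1.65 to 2.63), but the difference did not pass the threshold (log2 fold change 1.05, standard error 0.57, edgeR adjusted p = 0.232). Dsg2 exceeded Dsc2 in every library, by 10.5 times per kilobase in B6 (8.39 to 13.4), 7.20 in NOD 1 (6.52 to 7.97) and 4.46 in NOD 2 (upper bound 4.97). The intervals do not overlap, and the NOD libraries differed from each other as well.

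Among the plaque proteins, Pkp2 showed the lowest NOD level relative to B6. Pkp2, the plakophilin of simple epithelia and heart (NM_026163, chromosome 16, 16213345 to 16272712), had 1185, 1458 and 1216 counts, or 87.0, 44.1 and 35.7 CPM. B6 lay above both NOD libraries, whose mean was 39.9 ± 5.92 CPM (SD, n = 2). The log2 fold change of -1.12 (standard error 0.34), 2.18-fold lower in NOD, did not pass the threshold in edgeR (adjusted p = 0.0808). DESeq2 called it lower (adjusted p = 0.0257, where 12.9% of all genes were called lower), and so did edgeR with the filter at 1 CPM (adjusted p = 0.0365, 15.2% of all genes). Over all settings its adjusted p ran from 0.0257 to 0.139.

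Pkp3, a plakophilin widespread in epithelia, went the other way. It lies on chromosome 7 (NM_019762, 141079769 to 141090510) and had 18, 414 and 180 counts, which is 1.32, 12.5 and 5.29 CPM. Both NOD libraries lay above B6 but were themselves 2.34-fold apart on log2(CPM + 0.1), the widest distance of the 10 genes. Together they stood 6.70-fold above B6 (exact 95% counting interval 4.20 to 11.4). The log2 fold change of 2.75 (standard error 0.94) did not pass the threshold (edgeR adjusted p = 0.101), and it was 3.24 without NOD 2 and 2.01 without NOD 1.

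Dsp, the plakin that anchors keratin in the plaque (NM_023842, chromosome 13, 38151294 to 38198577), was the most abundant of the 6 desmosome genes by CPM. It had 2977, 5792 and 4233 counts, or 218.5, 175.2 and 124.4 CPM. B6 lay above both NOD libraries, by less from NOD 1 than the NOD libraries lay from each other (log2 fold change -0.54, standard error 0.30, edgeR adjusted p = 0.238). Jup, plakoglobin, which desmosomes share with adherens junctions (NM_010593, chromosome 11, 100368856 to 100397790), had 780, 1472 and 1569 counts, or 57.2, 44.5 and 46.1 CPM. Its NOD libraries were 1.04-fold apart, with B6 above both (log2 fold change -0.34, standard error 0.34, edgeR adjusted p = 0.479). The ratio of Dsp to Jup per kilobase was 1.99, 2.05 and 1.41, so that the NOD libraries spanned the B6 value.

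In the order of levels per kilobase in B6, Krt18 and Krt8 at 1053 and 311 were followed by Pkp2 at 30.2, Krt7 at 30.0, Dsp at 22.8, Dsg2 at 14.2, Jup at 11.5, Dsc2 at 1.35, Pkp3 at 0.468 and Krt19 at 0. The median gene with counts stood at 6.65 per kilobase in B6, so Dsc2, Pkp3 and Krt19 were below it. In NOD the highest means were Krt18 at 598, Krt8 at 179 and Krt7 at 34.7. Dsg2 at 16.5, Dsp at 15.7, Pkp2 at 13.9 and Jup at 9.08 came next, then Pkp3 at 3.15, Dsc2 at 2.80 and Krt19 at 1.49. The median gene with counts stood at 4.71 in NOD 1 and 4.11 in NOD 2. The NOD ranges of Dsg2 and Dsp overlapped, as did those of Dsp and Pkp2 and of Pkp3 and Dsc2. Within each NOD library Dsp lay above Pkp2, at 18.3 against 15.3 in NOD 1 and 13.0 against 12.4 in NOD 2. The other pairs changed their order between the NOD libraries. Pkp2 per kilobase was 1.32 times Dsp in B6 (exact 95% interval 1.24 to 1.42), 0.837 times in NOD 1 (0.790 to 0.887) and 0.955 times in NOD 2 (0.896 to 1.02). Summed CPM of the 6 desmosome genes was 451, 411 and 290.

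The NOD libraries differed from each other by a median of 1.37-fold over all genes tested, on log2(CPM + 0.1). Krt8, Krt18, Krt7 and Jup lay between 1.02- and 1.05-fold, Dsc2 at 1.13-fold and Pkp2 at 1.23-fold. Dsp at 1.41-fold, Krt19 at 1.72-fold, Dsg2 at 1.82-fold and Pkp3 at 2.34-fold were spread more widely than the median gene. Of all genes, 4.1% lay closer together than Krt8 did and 9.51% closer than Krt18.

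**Figure D3:**
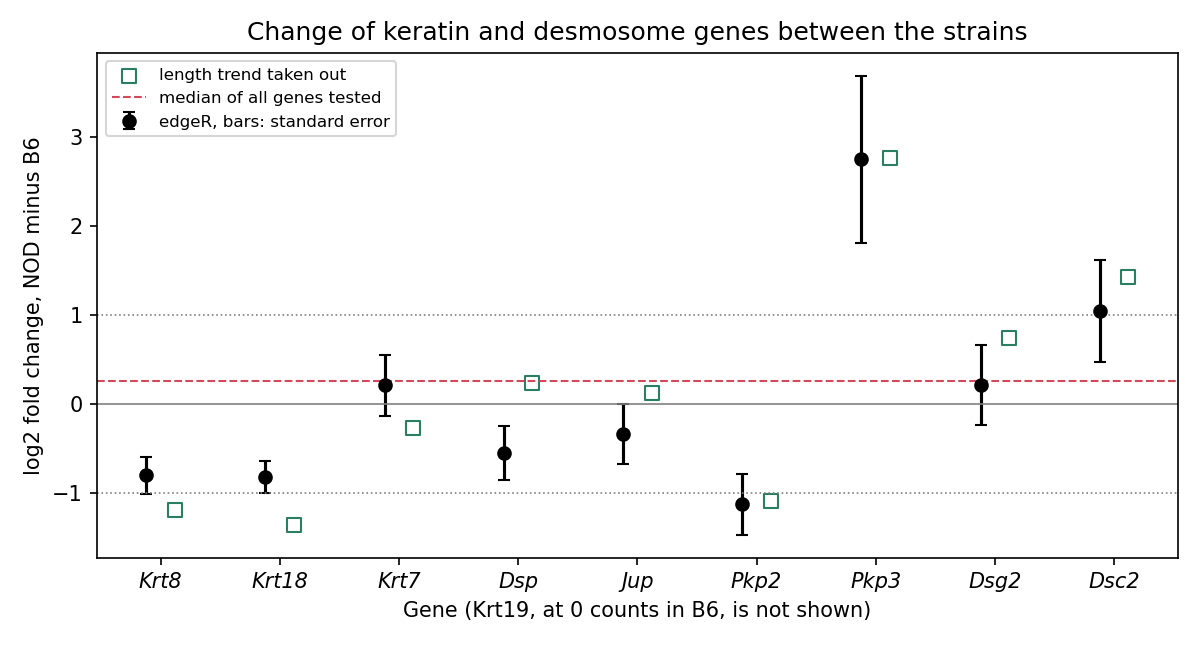
Log2 fold change of NOD minus B6 for 9 of the genes, with the edgeR estimate as black points, its standard error as bars and, as open squares, the estimate with the trend with transcript length taken out. Krt8 and Krt18 lie at -0.80 and -0.82 and move to -1.18 and -1.35, whereas Krt7, Dsp and Jup cross 0 (to -0.26, 0.23 and 0.12), the dotted lines mark the 2-fold limits and the dashed line the median of all genes, 0.26.

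Fold changes in these libraries moved with the length of the transcript. Over all genes, the median log2 fold change was 0.68 below 1500 bases, 0.55 from 1500 to 3000, -0.08 from 3000 to 6000 and -0.51 from 6000 bases on. Krt18, Krt7 and Krt8 are among the short transcripts, with 1391, 1575 and 1794 bases, and Dsp with 9566 is among the long. When the trend was taken out, which was an alternative added after seeing the data, Krt8 and Krt18 were called lower in NOD (log2 fold changes -1.18 and -1.35, edgeR adjusted p = 0.0332 and 0.0254), where 6.25% of all genes were. The values of Dsp, Jup and Krt7 changed sign to 0.23, 0.12 and -0.26 without passing the test (adjusted p = 0.602, 0.812 and 0.587). Pkp2 at -1.09 and Pkp3 at 2.77 hardly moved, and Dsg2 and Dsc2 stood at 0.75 and 1.43. The part of transcript length in the differences between the strains was not tested.

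**Figure D4:**
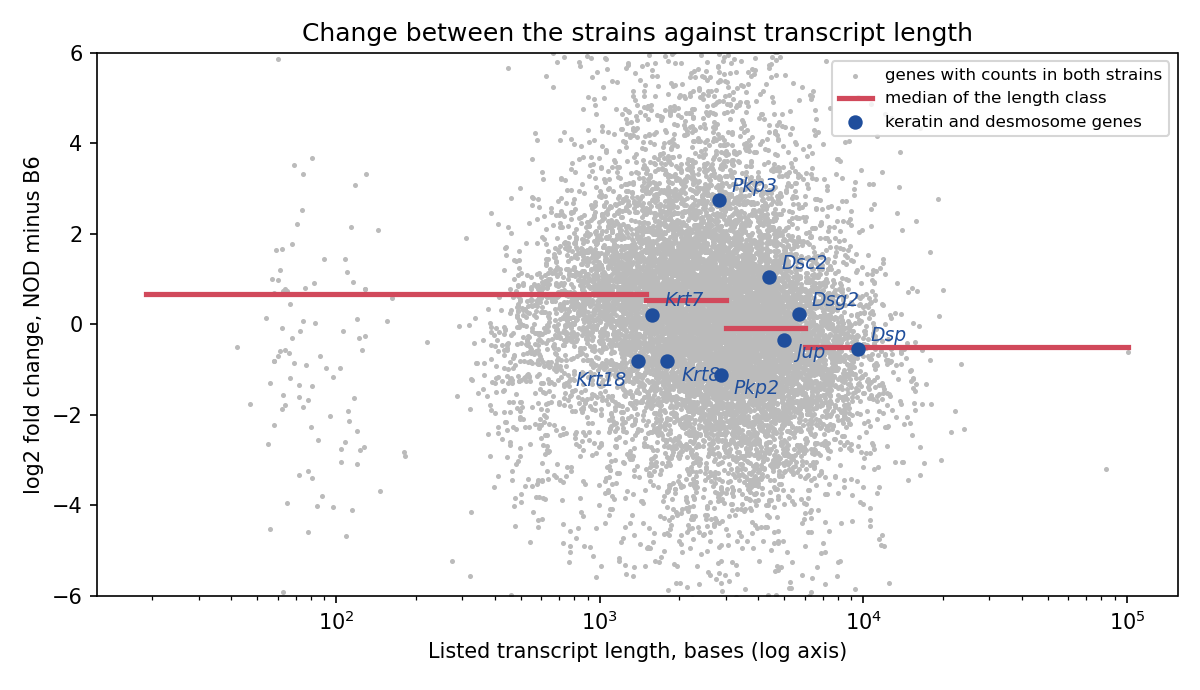
Log2 fold change of NOD minus B6 (vertical axis) against the listed transcript length in bases (horizontal log axis), with grey dots for genes counted in both strains, red bars for the medians of 4 length classes and blue points for the keratin and desmosome genes. The class medians run from 0.68 for the shortest to -0.51 for the longest, with Krt18 and Krt8 below the medians of their classes and Dsp near that of its own.

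Scaling set the zero of these values. On the log2 scale, the median gene differed by 0.26 with TMM factors and by 0.07 with total counts only. Relative to the TMM median, Krt8 stood at -1.06, Krt18 at -1.08, Pkp2 at -1.38, Dsp at -0.81 and Jup at -0.60. Krt7 at -0.05 and Dsg2 at -0.04 lay at the median gene, and Dsc2 at 0.79 and Pkp3 at 2.49 above it. With total counts only, Krt18 also reached the 2-fold limit and was called lower (edgeR adjusted p = 0.0365), where 7.83% of all genes were. Of all genes called, 58.1% were higher in NOD with TMM factors and 47.8% with total counts.

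The other genes of the desmosome and of the cytolinkers that hold filaments in place were called lower in NOD in a few cases and never higher. Of 5 other desmosome genes tested 2 fell and 0 rose, and 4 lay below B6 in both NOD libraries, with a median log2 fold change of -1.52. Over all genes tested, 7.39% were called lower, 10.3% higher and 39.4% lay below B6 in both, with a median of 0.26, and the other lists below are to be read against the same shares. Perp, a membrane protein of desmosomes, fell from 357.3 CPM in B6 to 167.4 and 134.8 CPM in NOD (log2 fold change -1.24, edgeR adjusted p = 0.0395). Pkp4, a plakophilin relative found in several junctions, fell from 130.3 CPM to 45.7 and 33.8 CPM (-1.71, adjusted p = 0.0385). Pkp1, the plakophilin of stratified epithelia, had 46 counts in B6 and 0 in both NOD libraries, and 6 of the 11 listed genes, the skin cadherins Dsg1a, Dsg1b, Dsg1c, Dsg3, Dsg4 and Dsc1, had 0 counts throughout. Dsc3, another desmocollin of skin, had 0, 0 and 61 counts and was not called. Pkp1 passed the filter only through B6 and Dsc3 only through NOD 2, so the count of 4 below B6 and the median include genes selected in the group where they are high.

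Of 6 plakins, 2 fell and 0 rose, and 5 lay below B6 in both NOD libraries, with a median of -1.52, or -0.48 with the length trend taken out. Plec, the plectin that links filaments to other parts of the cytoskeleton, fell from 157.1 CPM in B6 to 42.2 and 27.2 CPM in NOD (log2 fold change -2.18, edgeR adjusted p = 0.0312). Dst fell from 122.5 CPM to 31.7 and 17.9 CPM (-2.30, adjusted p = 0.0361). Macf1, the most abundant of the list, stood at 215.7, 154.8 and 81.5 CPM and was not called (adjusted p = 0.197). These transcripts are long, and with the length trend taken out 0 plakins were called, with Plec at -1.17 and Dst at -1.04 (adjusted p = 0.0983 and 0.162). Pkp4 then stood at -1.31 and was not called (adjusted p = 0.0673), while Perp was still called lower (log2 fold change -1.58).

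Cdh1, the E-cadherin of adherens junctions, was the one gene of 4 in its list to pass, and fell from 424.9 CPM in B6 to 179.8 and 127.9 CPM in NOD (log2 fold change -1.47, edgeR adjusted p = 0.0373), and it stood at -1.09 without a call (adjusted p = 0.0683) with the length trend taken out. The catenins that join it to actin were not called, with Ctnnb1 at 224.8, 274.2 and 242.3 CPM and Ctnna1 at 327.2, 274.0 and 221.6 CPM. Of 5 other intermediate filament genes tested, Lmna, which encodes the A-type lamins of the nucleus, fell from 247.6 CPM to 57.6 and 53.5 CPM (-2.16, adjusted p = 0.0216). Lmnb1 stood at 57.5, 35.2 and 22.8 CPM and Lmnb2 at 24.1, 8.14 and 10.4 CPM, and neither was called. Nes, the nestin of neural progenitors, had 0, 135 and 61 counts, passed the filter only through NOD and was not called by edgeR (adjusted p = 0.0550). DESeq2 called 1 gene of this list higher and 1 lower, where 16.2% and 12.9% of all genes were. Vim, the filament protein of mesenchyme, had 0, 3 and 1 counts.

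Of 6 genes whose proteins bind keratins or regulate epithelial genes, 2 fell and 0 rose, against 7.39% and 10.3% of all genes. Tchp, trichoplein, a keratin-binding protein, fell from 40.5 CPM in B6 to 3.27 and 2.73 CPM in NOD (log2 fold change -3.75, edgeR adjusted p = 0.0223). Sfn, an epithelial 14-3-3 protein, fell from 638.5 CPM to 154.1 and 243.8 CPM (-1.68, adjusted p = 0.0364). Ywhaz and Dnajb6, the others of high level, were not called, with Ywhaz at 462.0, 394.0 and 476.5 CPM and Dnajb6 at 74.4, 43.9 and 54.4 CPM. Grhl2, a factor of epithelial genes, lay above B6 in both NOD libraries, at 26.3, 63.8 and 38.3 CPM, without a call. Both falls were still called with the length trend taken out, as was that of Lmna.

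**Figure D5:**
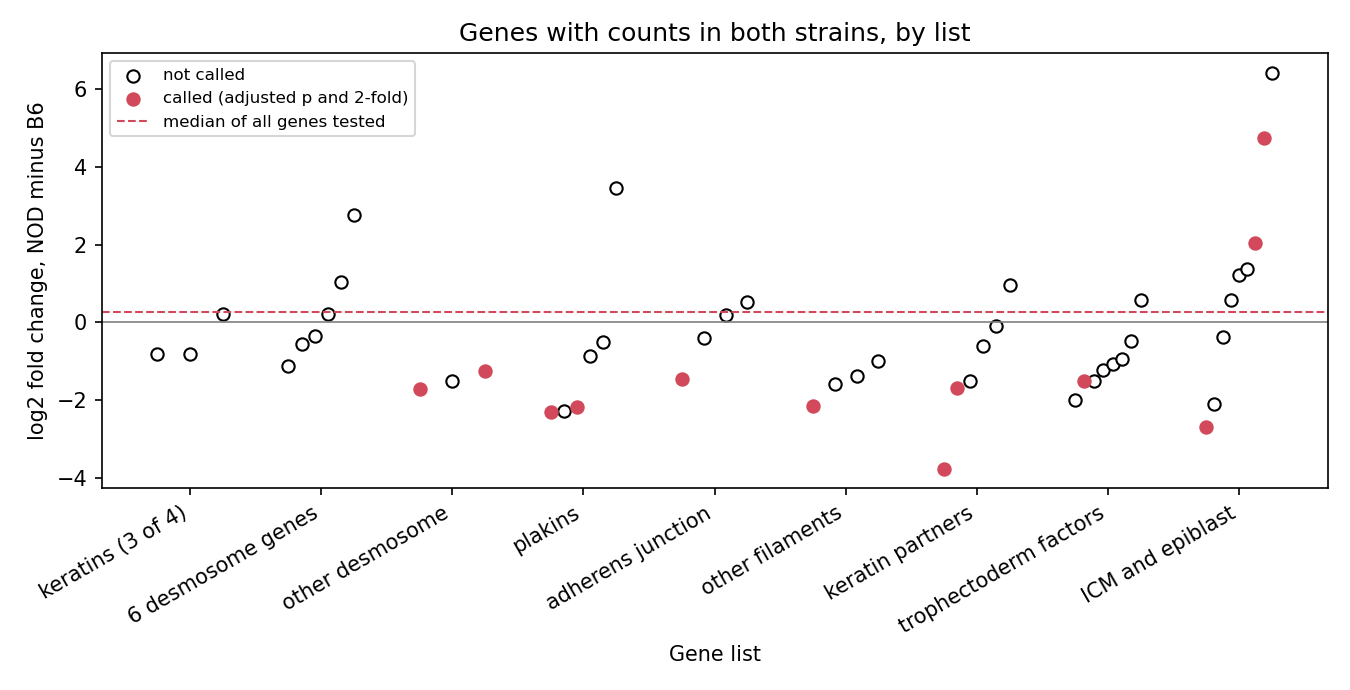
Log2 fold change of NOD minus B6 for each gene with counts in both strains, by list, with filled points for genes that passed the threshold. Krt19, at 0 in B6, is not shown, and no point is filled among the other keratins of the first list and the 6 desmosome genes, 2 are filled among the other desmosome genes, the plakins and the keratin partners, and the dashed line marks the median of all genes, 0.26.

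Markers of the embryo's lineages were summed in the same libraries as the keratins. Summed CPM of 9 trophectoderm factors was 2057, 1025 and 707, or 0.498 and 0.344 times the B6 sum, beside 0.577 and 0.592 for the keratins and 0.912 and 0.643 for the desmosome genes. Of the 8 factors tested, 7 lay below B6 in both NOD libraries and 1 was called lower, with a median log2 fold change of -1.15, against 39.4% and 7.39% of all genes. With total counts only, 3 were called lower, where 7.83% of all genes were, and DESeq2 called 5 lower and 0 higher, where 12.9% and 16.2% of all genes were. The 1 gene called by edgeR was Klf5, which fell from 992.8 CPM in B6 to 414.5 and 280.6 CPM in NOD (log2 fold change -1.51, edgeR adjusted p = 0.0354). Klf5 was the largest single part of the trophectoderm sum in every library, so that sum rests in large part on this gene. Gata3, the next most abundant, stood at 468.4, 337.8 and 147.9 CPM and Tfap2c at 237.3, 81.7 and 119.9 CPM without a call.

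Summed CPM of 9 ICM and epiblast genes was 410, 635 and 786, or 1.55 and 1.92 times B6. Of these, 2 rose and 1 fell, against 10.3% and 7.39% of all genes, with a median of 1.23. DESeq2 called 4 of them higher and 2 lower, where 16.2% and 12.9% of all genes were. Tdgf1, a Nodal co-receptor, rose by 4.75 and Gdf3, a Nodal-related ligand, by 2.04 on the log2 scale (edgeR adjusted p = 0.0231 and 0.0339), whereas Sox2, a pluripotency factor, fell by 2.70 (adjusted p = 0.0327). Nanog, the most abundant of the list, stood at 118.4, 217.3 and 336.5 CPM. The primitive endoderm list of 7 genes summed to 763, 769 and 983 CPM, and among its 6 genes tested Pdgfra rose by 2.13 and Gata6 fell by 1.80 (adjusted p = 0.0488 and 0.0285), of which Pdgfra was not called with total counts only. Dab2, the most abundant of them, stood at 371.2, 650.6 and 824.2 CPM. The part of each embryo's share of trophectoderm and ICM in the keratin levels was not tested.

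Markers of cells that could be carried over with the embryos were low. Those of the reproductive tract summed to 0.587, 8.56 and 3.38 CPM, nearly all of it Muc1, an epithelial mucin. Its NOD 1 level of 8.56 CPM and NOD 2 level of 2.91 CPM stood above B6, with NOD 1 the higher, as did the levels of Krt19, Pkp3, Krt7 and Dsc2, and the part of carried-over cells in those values was not tested. The other genes of that list did not follow Muc1. Ovgp1 had 0, 0 and 7 counts and Pax8 1, 0 and 9, both at 0 in NOD 1, and Ltf and Foxj1 were at 0 in every library. Cumulus and granulosa markers reached no more than 0.484 CPM, leukocyte markers summed to 0.294, 0.363 and 1.03 CPM and fibroblast markers to 0.807, 3.24 and 5.35 CPM, with Col1a2, Col3a1, Dcn, Ptprc and Lyz2 at 0. Of the fibroblast list, Thy1 had 11, 91 and 53 counts, Pdgfrb 0, 0 and 109 and Col1a1 0, 16 and 20, and the part of such cells in the results was not tested.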

How the data were processed

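RNA-Seq counts per gene were taken from 3 blastocyst libraries, grouped by the strain in the labels into B6 with 1 library and NOD with 2. After 19 PCR cycles the authors sequenced 50-base single-end reads, mapped them with STAR (mm10) and let HOMER count the exon reads of either strand, keeping 1 RefSeq transcript for each gene. The submitters' processing notes name CASAVA 1.8.2 and STAR 2.2.0c, and the paper's methods another STAR version. The deposited values are these raw counts, not normalized. Reads of both strains were mapped to this same build, and the part of sequence differences between the strains in the counts was not tested. Treatment of reads that align to several places is not given in the sources used here. Because strand was not used, reads of opposite-strand genes cannot be told apart, which touches 5.16% of the exon bases of Krt8, 5.17% of Dsp, 3.99% of Dsg2 and 1.09% of Krt7 in GENCODE M21.

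The versions were 4.0.16 of edgeR, 3.58.1 of limma and 1.42.0 of DESeq2 under R 4.3.3, with Python 3.11.15. Of 24063 genes, 7298 had 0 counts throughout and 14456 were kept by filterByExpr at a minimum count of 10. TMM factors were 1.09 for B6, 0.975 for NOD 1 and 0.941 for NOD 2. The quasi-likelihood test used trended dispersion without the robust option (median biological coefficient of variation 0.374, 1 residual and 3.78 prior degrees of freedom), and assumes that B6 varies like NOD. Log2 fold changes are NOD minus B6 (prior count 0.125), with standard errors from the square root of F. The limits of adjusted p 0.05 and 2-fold are those the study gives for its ES cells. Ratio intervals are Clopper-Pearson. Shared 50-base words were counted in GENCODE M21 transcripts.

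The genes and lists were chosen with earlier results of these data known. Named were all 10 genes, of each other list the genes called and up to 3 of highest mean CPM, and the 5 nearest to Krt8 in log2 CPM (prior count 2). The result for 1 of these is not reported here. Pkp1, Dsc3, the skin desmogleins, Grhl2, Nes, Krt27, Krt222, Krt1, Krt5, Lor, Vim, Lmnb2, Cdx2, Esrrb, Klf2, Muc1 and other markers at or near 0 were named after their values were seen where the rule does not cover them.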

Additional observations from a re-analysis of the deposited data

How the results depend on the processing

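Alternatives were DESeq2 size factors, total counts, upper-quartile factors, no filter, a filter at 1 CPM in 2 libraries, DESeq2, limma-voom, robust dispersion and each NOD library left out, and, chosen after seeing the data, edgeR's own common dispersion, its legacy test and removal of the length trend. The number of the 10 genes called higher was 0 except 1 (Krt19) with the 1 CPM filter, which Krt19 passed through NOD alone. The number called lower was 1 with total counts (Krt18), 1 with the 1 CPM filter and 1 with DESeq2 (Pkp2), and 2 with the length trend taken out (Krt8 and Krt18). That removal reversed Krt7 to -0.26, Dsp to 0.23 and Jup to 0.12, and left 1 other desmosome gene, 0 plakins and 0 adherens genes called lower. As raw counts, not per kilobase, Krt8 over Krt18 was 0.381 in B6, 0.399 in NOD 1 and 0.373 in NOD 2, and type II over type I 0.414, 0.465 and 0.435, since the lengths differ. The log2 ratio of summed keratins, NOD mean over B6, was -0.81 with DESeq2 size factors and -0.96 with total counts.

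Over all genes, 1483 were called higher and 1069 lower. This became 0 and 0 without a filter (5568 at an unadjusted p under 0.05), 0 and 0 with limma-voom (3924), 2346 and 1864 with DESeq2 and 2442 and 1778 with the 1 CPM filter, with 701 lower under upper-quartile factors and 1612 lower under the legacy test. With 1 NOD library left out there is no test, and log2 fold changes ran from -0.85 to -0.77 for Krt18, -0.80 to -0.79 for Krt8, -0.80 to -0.32 for Dsp, -1.27 to -0.98 for Pkp2 and 2.01 to 3.24 for Pkp3. No paired analysis was possible because B6 has 1 library, so that the strains share fewer than 2 replicate numbers. In the B6 library, the shallowest, Krt19 and Pkp3 had the fewest counts of the 10 genes, at 0 and 18.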
